A study of Mus musculus with 12 samples.

Results

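The DNA replication machinery of mouse C2C12 myoblasts was described over 35 genes that cover origin licensing, the Mcm2-7 helicase and its activation, the polymerases and primase, the clamp and its loader, strand binding and joining, chromatin assembly and nucleotide supply. Members were the probes whose gene symbol is on this list and whose detection p was under 0.05 on at least 2 of the 12 arrays. This held for 34 of the 35 genes and for 55 of their 57 named probes, out of 10346 genes tested, and the catalytic polymerase alpha gene Pola1 had no such probe. The study followed C2C12 cells, a myoblast line grown from mouse muscle that forms myotubes when serum is withdrawn, and asked what loss of subunits of the SWI/SNF chromatin remodelling complex does to that programme. The 6 groups of 2 arrays each were cells given siRNA pools against BAF60c (siBAF60c), BAF60b (siBAF60b), the remodelling ATPase BRG1 (siBRG1) or a scrambled sequence (siScramble), then untargeted wild-type cells kept in differentiation medium (DM) or in growth medium (GM). Cells of all 6 groups, GM and DM included, grew in 15% serum. Transfected cells were moved to ITS differentiation medium after 36 h and were harvested 18 h later. The DM cells also had 18 h in differentiation medium, so all 4 siRNA groups share that medium with DM. The labels mark both wild-type groups as transfection controls without saying whether they received any reagent. All groups are the same line, nothing says that the 2 arrays of a group came from separate cultures, and if they did not, the p-values cover technical spread between samples and nothing else.

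A replication origin is licensed in G1 when the origin recognition complex, Cdc6 and Cdt1 load the ring-shaped Mcm2-7 helicase onto DNA, and geminin blocks Cdt1 once S phase has begun. Cdc45, the GINS complex and Mcm10 then turn the loaded ring into a moving helicase, behind which primase, the polymerases and the Pcna clamp copy both strands. Many of these genes are transcribed through E2F factors in cycling cells and are shut down in myoblasts that leave the cell cycle to fuse.

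For Cdc6, Cdt1, Mcm10 and Rfc4, which had the smallest p-values among the members between siBRG1 and siScramble, the RefSeq promoters of build GRCm38.p6 are printed as 300 bases, 250 before the transcription start and 50 after it. Capitals mark matches to an E2F-type motif (TTTGGCGC or TTTCGCGC) or to CCAAT, both searched on both strands, and no match of one overlapped the other. The windows lie at chr11:98907901-98908200 (plus strand) for Cdc6, chr8:122567765-122568064 (plus strand) for Cdt1, chr2:5012742-5013041 (minus strand) for Mcm10 and chr16:23127681-23127980 (minus strand) for Rfc4.
Cdc6: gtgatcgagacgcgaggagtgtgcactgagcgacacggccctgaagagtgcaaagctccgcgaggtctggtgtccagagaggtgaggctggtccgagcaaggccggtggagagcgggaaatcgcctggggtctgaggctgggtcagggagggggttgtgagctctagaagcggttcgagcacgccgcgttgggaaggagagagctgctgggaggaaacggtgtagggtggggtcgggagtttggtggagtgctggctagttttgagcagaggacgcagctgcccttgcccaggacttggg
Cdt1: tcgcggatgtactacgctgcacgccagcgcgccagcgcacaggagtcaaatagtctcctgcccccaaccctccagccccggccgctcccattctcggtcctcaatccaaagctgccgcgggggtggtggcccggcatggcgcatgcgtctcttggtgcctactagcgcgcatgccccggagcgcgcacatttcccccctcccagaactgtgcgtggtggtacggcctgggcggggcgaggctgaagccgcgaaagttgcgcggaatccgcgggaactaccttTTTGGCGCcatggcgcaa
Mcm10: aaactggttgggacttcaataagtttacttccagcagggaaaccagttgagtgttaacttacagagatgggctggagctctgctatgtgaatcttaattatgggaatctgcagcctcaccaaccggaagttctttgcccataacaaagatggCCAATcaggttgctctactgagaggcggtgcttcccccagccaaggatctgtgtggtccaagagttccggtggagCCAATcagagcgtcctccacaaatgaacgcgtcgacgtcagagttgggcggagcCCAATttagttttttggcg
Rfc4: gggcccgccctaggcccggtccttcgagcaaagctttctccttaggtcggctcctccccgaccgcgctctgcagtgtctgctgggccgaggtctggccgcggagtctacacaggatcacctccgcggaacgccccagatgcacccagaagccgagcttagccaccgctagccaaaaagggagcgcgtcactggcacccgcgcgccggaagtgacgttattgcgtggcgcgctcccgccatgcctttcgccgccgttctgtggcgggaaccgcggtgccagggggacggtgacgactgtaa
The Cdt1 window held 1 E2F-type match and the Mcm10 window 3 CCAAT matches, while the Cdc6 and Rfc4 windows held neither string. A window was on hand for 29 of the 35 members. The E2F-type strings were found in 9 of them (31.0%), Orc1, Cdt1, Mcm3, Mcm5, Mcm6, Mcm7, Pola1, Rfc3 and Lig1, against 0.929% of 27025 mouse genes. CCAAT was found in 18 of the 29 (62.1%), against 41.1% of genes. These counts describe letters in the windows and not bound factors.

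Between 28.1% and 34.0% of the 45281 probes of the scanner table were detected on each array. Of 6 measured myoblast markers, 5 were detected on both arrays of every group. The 6 differentiating myocyte markers (Myog, Ckm, Actc1, Acta1, Tnnt3 and Mymk) summed to 36315 to 41735 intensity units in DM, against 871 to 952 in GM. Of macrophage and endothelial markers, 1 of 5 and 1 of 4 had a usable probe, and neither passed in any comparison. The osteoblast and chondrocyte list had 4 of 7 and none passed either. The 2 DM arrays stood apart from each other, with a correlation of 0.945 and 1836 genes that differed by over 1 on the log2 scale, against 108 to 462 genes in the other groups. Each siRNA target had lower values than in siScramble, with Smarca4 (BRG1) at 52.95%, Smarcd2 (BAF60b) at 34.1% and Smarcd3 (BAF60c) at 52.3% of siScramble, and none passed limma's adjusted p over all genes.

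**Figure D1:**
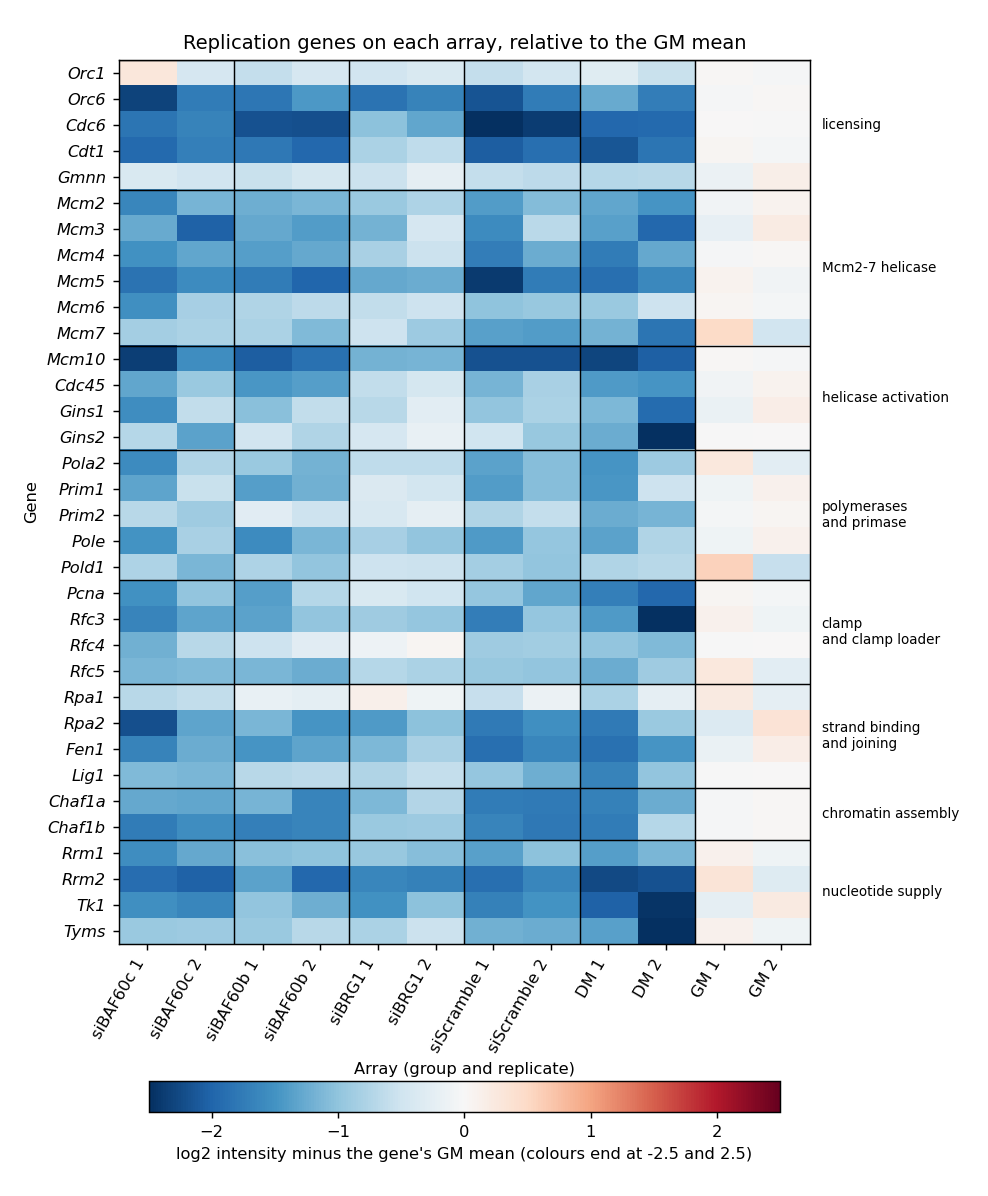
Log2 intensity of the 34 measured replication genes (rows, grouped by role) on each of the 12 arrays (columns), minus the gene's mean over the 2 GM arrays; blue is lower and red higher, and colours end at -2.5 and 2.5. The siBRG1 columns are the palest of the differentiation medium columns, and DM replicate 2 has the darkest cells for Gins2, Rfc3, Tk1 and Tyms.

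Replication transcripts were highest in growing cells and, among cells in differentiation medium, stood highest after BRG1 siRNA. Relative to the gene's GM mean, the median over the 34 members was -1.51 and -1.15 on the siBAF60c arrays, -1.15 and -1.16 on the siBAF60b arrays, -0.80 and -0.64 on the siBRG1 arrays, -1.38 and -1.08 on the siScramble arrays and -1.40 and -1.37 on the DM arrays (log2). Both siBRG1 arrays lay above all 8 other differentiation medium arrays in the median over members. Gene by gene, the same held in 18 of 34 members, against 4.27% of all genes, and the siBRG1 mean was the highest of the 5 differentiation medium groups in 30 of 34, against 20.7% of all genes. The 4 exceptions were the origin subunit Orc6 (highest in DM), the nucleotide enzymes Rrm2 and Tk1 (highest in siBAF60b) and Orc1 (highest in siBAF60c, where 1 array detected it). Both GM arrays lay above all 10 other arrays in 30 of 34 members, against 10.6% of all genes. Gmnn is among the 30, and it met the detection filter through the GM arrays alone. In bulk RNA, fewer cells in S phase and less of each transcript per cell cannot be told apart.

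**Figure D2:**
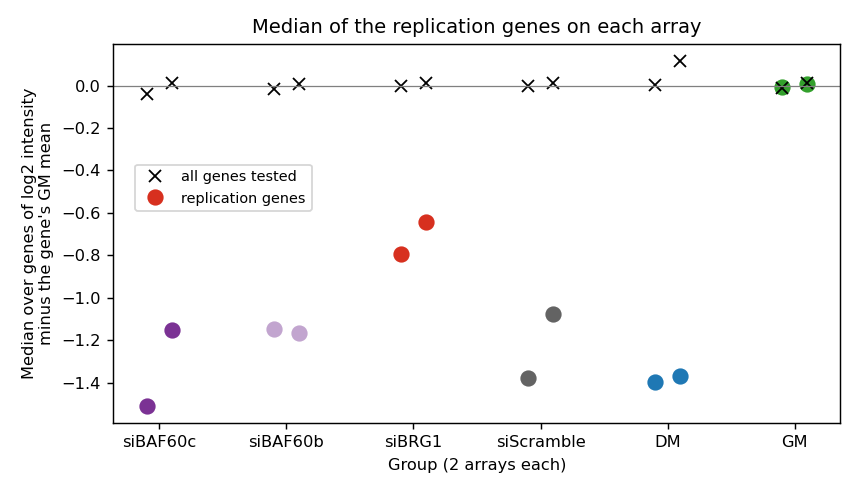
Median over the 34 replication genes (filled points, coloured by group) and over all 10346 genes (crosses) of log2 intensity minus the gene's GM mean, for each of the 2 arrays of the 6 groups. The siBRG1 points, at -0.80 and -0.64, sit between the GM points near 0 and all other points at or below -1.08.

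Nearly the whole replication apparatus was lower in DM than in growing cells. Between DM and GM, 28 of the 34 members fell and none rose at limma's Benjamini-Hochberg adjusted p under 0.05, where 8.93% of all genes fell. The median difference was -1.46 on the log2 scale, against 0.07 over all genes. The arrays of the groups did not overlap in 33 members, all lower in DM, against 24.1% of all genes. These include Gmnn and Orc1, which were undetected on every DM, siScramble and siBRG1 array and count likewise among the members without overlap between siScramble or siBRG1 and GM. The 6 members that did not pass were Orc1, Gmnn, Mcm6 (-0.72), Prim1, Pold1 (-0.72) and Rpa1 (-0.51), and Rpa1 was the member whose arrays overlapped. The Mcm6 value is that of its brightest probe, and its further probes, each detected on 12 arrays, had -1.45 and -1.41. Without DM replicate 1 the member median was -1.37, and fewer members but more of all genes passed. Without DM replicate 2 the member median was -1.40, and fewer of both passed. In every fit that leaves a group with 1 array, that array is taken to vary like those of the other groups.

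Of the 5 licensing members 3 fell, with Cdt1 and Cdc6 the lowest. Cdt1, which carries the Mcm ring to the origin, had 8.30 and 8.61 in DM, against 10.49 and 10.38 in GM (log2 intensity). Both DM arrays were below both GM arrays, and the DM mean was 25.4% of the GM mean (log2 difference -1.98, SE 0.25, limma's adjusted p = 9.25e-05, 2 arrays per group). Cdc6, the ATPase that loads the ring with the origin complex, had 6.89 and 6.92 in DM, against 8.87 and 8.84 in GM. Its groups did not overlap and its difference was -1.95 (SE 0.26). Orc6, a subunit of the origin recognition complex, fell to 35.4% of GM. Orc1, the ATPase subunit of that complex, and Gmnn, the geminin that inhibits Cdt1, were not above background in DM, and their differences did not pass.

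Most members of the Mcm ring and all members of the activation group fell. Mcm5, a subunit of the Mcm ring, had 10.44 and 10.72 in DM, against 12.41 and 12.23 in GM. The DM arrays were both lower, by 1.75 on average (SE 0.28, limma's adjusted p = 0.000631). Of the ring's other subunits, Mcm4 (-1.51), Mcm7 (-1.50) and Mcm2 (-1.38) fell, and Mcm3 was at least 2.47-fold lower, being undetected on both DM arrays. Mcm10, which helps the helicase to fire and binds polymerase alpha, had 7.75 and 7.99 in DM, against 10.07 and 10.01 in GM. The DM values were the lower ones without overlap (-2.17, SE 0.29, limma's adjusted p = 0.000119). All 4 activation members fell, the others being the GINS subunits Gins2 (-1.90) and Gins1 (-1.53) and the helicase cofactor Cdc45 (-1.45). The 2 DM arrays disagreed on Gins2, with 7.91 and 6.58.

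The polymerase and primase members had a median of -1.05, and 3 of the 5 measured fell. Prim2, the large primase subunit, had 6.78 and 6.86 in DM, against 7.98 and 8.06 in GM. The DM arrays lay lower with no overlap (-1.20, SE 0.25, limma's adjusted p = 0.00391). Pola2, the regulatory subunit of polymerase alpha, fell by 1.19 and Pole, the leading-strand polymerase, by 1.05, while Pold1, the catalytic subunit of polymerase delta, had -0.72 without passing. Prim1, the catalytic primase subunit, was at least 1.39-fold lower with limma's adjusted p at 0.0551.

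Pcna, the sliding clamp, had 6.69 and 6.45 in DM, against 8.45 and 8.37 in GM. Both DM arrays were lower (-1.84, SE 0.30, limma's adjusted p = 0.000641). All 3 clamp loader subunits among the members fell, with Rfc3 at -2.04 (detected on 1 of the 2 DM arrays), Rfc5 at -1.06 and Rfc4 at -1.05. The loader subunits Rfc1 and Rfc2, measured outside the member list, did not pass. Fen1, the nuclease that trims Okazaki fragments, had 8.90 and 9.28 in DM, against 10.60 and 10.92 in GM. Its DM values were both lower (-1.67, SE 0.28, limma's adjusted p = 0.000882). Rpa2, a subunit of the protein that coats single strands, fell by 1.35, and Lig1, which seals the fragments, by 1.33.

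Chaf1a, the large subunit of the CAF-1 histone chaperone, had 8.02 and 8.46 in DM, against 9.68 and 9.74 in GM. The DM arrays were the lower ones (-1.47, SE 0.28, limma's adjusted p = 0.00218), and its partner Chaf1b fell by 1.22. All 4 members of nucleotide supply fell, with a median of -2.23. Tk1, thymidine kinase, had 9.44 and 9.01 in DM, against 11.25 and 11.69 in GM. The DM arrays stood at 21.1% of GM on average without overlap (-2.24, SE 0.28, limma's adjusted p = 8.31e-05). Thymidylate synthase Tyms (-2.52), whose DM arrays had 10.46 and 8.13, and the ribonucleotide reductase subunits Rrm2 (-2.21) and Rrm1 (-1.26) also fell.

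Among the 12 members with several usable probes, 18 of 21 further probes lay in the same direction between DM and GM. The others were 1 probe each of Lig1 (0.09), Rrm1 (0.49) and Tyms (0.35). Within the 2 BeadChips (the glass slides that carry several arrays) that held both groups, the member median was -1.48 on the second and -1.33 on the third.

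Genes listed as markers of other cell types moved beside these values. Of 4 measured fibroblast markers (of 5, Thy1 having no usable probe), the matrix genes Col3a1 (1.78) and Dcn (1.93) rose between DM and GM. The list summed to 2747 to 3704 intensity units in DM and 2679 to 2724 in siScramble, against 905 to 1095 in GM. Of 2 measured adipocyte markers, the fat cell regulator Pparg fell (-2.36) and the lipase Lpl did not pass. Of 2 measured neuronal markers none passed. Between siScramble and GM, Dcn (3.96), Col3a1 (0.99), Lpl (1.64) and the microtubule protein Map2 of the neuronal list (2.72) rose and Pparg fell (-1.24). The other 4 of 6 adipocyte markers (Fabp4, Adipoq, Plin1 and Cebpa) and 3 of 5 neuronal ones (Tubb3, Snap25 and Nefl) had no usable probe. The adipocyte sum was 81.8 to 88.0 in DM and 274 to 371 in siScramble, against 288 to 301 in GM, and the neuronal sum was 92.3 to 97.1 in DM and 218 to 343 in siScramble, against 55.8 to 75.5 in GM. The part of these markers in the replication values was not tested.

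**Figure D3:**
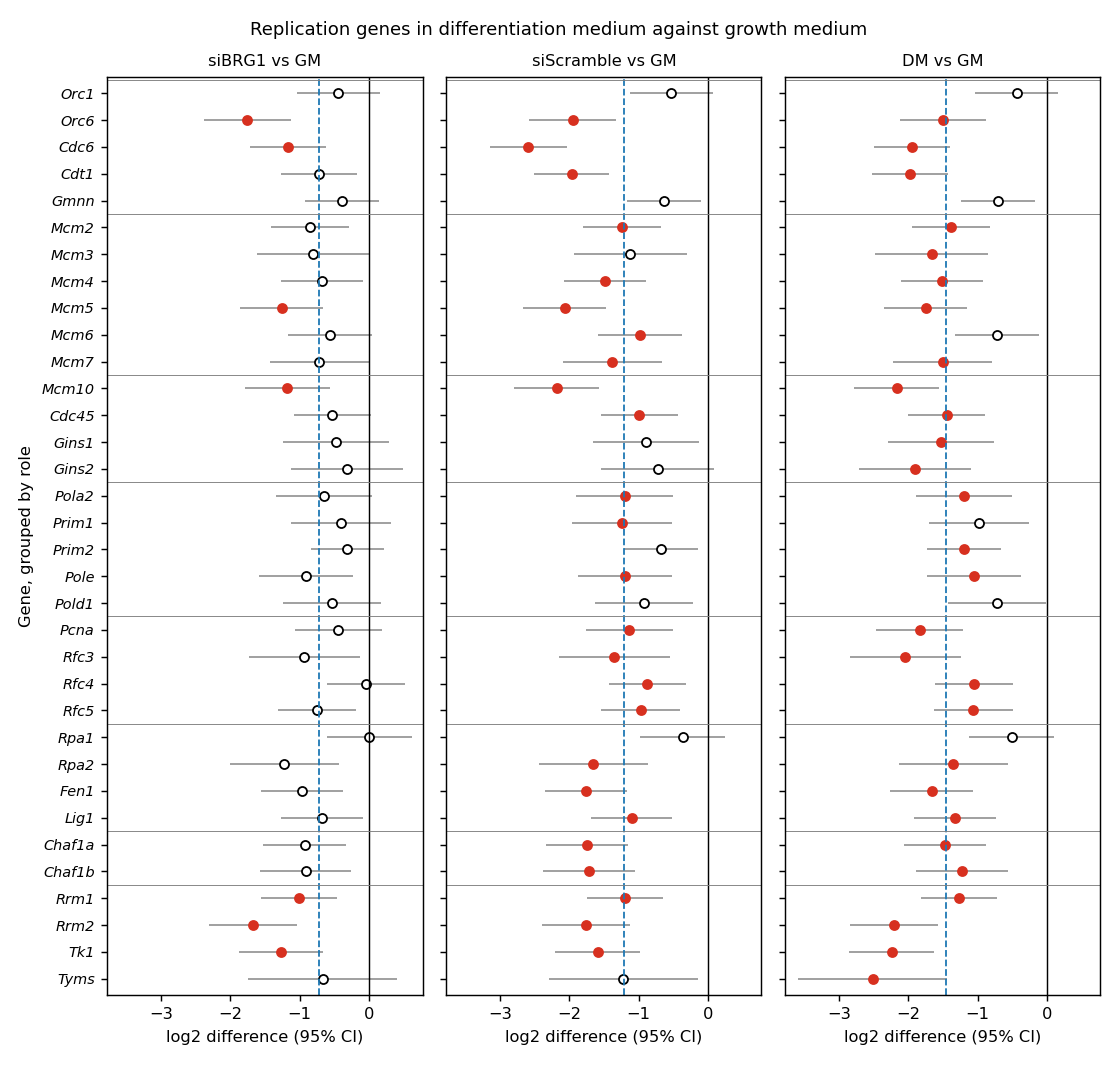
Log2 differences of the 34 replication genes against GM for siBRG1, siScramble and DM, with 95% confidence intervals from the limma fit on 2 arrays per group; filled points passed an adjusted p under 0.05 and the dashed line is the member median. Filled points number 7 for siBRG1, 25 for siScramble and 28 for DM.

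In the transfected control, too, most members were lower than in growing cells. Between siScramble and GM, 25 of 34 members fell and none rose, where 5.95% of all genes fell, with a median of -1.21. Arrays did not overlap in 33 members, against 28.3% of all genes. Cdc6 had 6.04 and 6.48 in siScramble, against 8.87 and 8.84 in GM. It was lower on both siScramble arrays, at 16.6% of GM on average (-2.59, SE 0.26, limma's adjusted p = 1.17e-05). Mcm10 (-2.18), Mcm5 (-2.07), Cdt1 (-1.97), Orc6 (-1.95) and Fen1 (-1.76) fell too, and Prim1 was at least 1.50-fold lower. The 9 that did not pass were Orc1, Gmnn, Mcm3, Gins1, Gins2, Prim2, Pold1, Rpa1 and Tyms. Of these, Gins2 had -0.73 on its brightest probe and -1.67 and -1.51 on its further probes. Prim2 had -0.67 and -0.58 on its further probe. Tyms had -1.22, and its further probes had -1.42, -0.29 and 0.23. Fewer members and fewer of all genes passed without any single array of siScramble, GM, siBRG1 or siBAF60b. The member median was -1.08 and -1.38 without siScramble replicate 1 and 2, and -1.18 and -1.31 without GM replicate 1 and 2. On the second BeadChip alone the median was -1.21.

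No member passed between siScramble and DM (0 of 34, where 3.4% of all genes passed), and 5 had an unadjusted p under 0.05, against 18.4% of all genes. The median was 0.07, with 20 members above 0. The widest differences were in Tyms (1.29, 95% interval 0.22 to 2.37, limma's adjusted p = 0.192) and Gins2 (1.18, 0.36 to 1.99, limma's adjusted p = 0.11). Pcna (0.70), Rfc3 (0.69) and Tk1 (0.65) followed, and Cdc6 was the lowest (-0.64, -1.19 to -0.09, limma's adjusted p = 0.206). Tyms had 10.60 and 10.57 in siScramble, against 10.46 and 8.13 in DM, so its difference lay mostly on DM replicate 2. Without DM replicate 1, 4 members passed (Tyms at 2.45, Gins2 at 1.84, Rfc3 at 1.31 and Chaf1b at -1.01), where 2303 of all 10346 genes passed, a larger share than among the members. Without DM replicate 2, 0 passed, where 176 of all genes did.

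Replication genes stood higher in siBRG1 cells than in siScramble cells, and a single member passed. Between siBRG1 and siScramble all 34 members had a positive difference, against 51.7% of all genes, with a median of 0.43 against 0.01 over all genes. For Orc1 and Gmnn, undetected in both groups, the sign is one between background values. Cdc6 was the single member that passed limma's adjusted p over all genes, where 0.106% of all genes rose. The siBRG1 arrays lay above the siScramble arrays without overlap in 27 members, Gmnn among them, against 22.3% of all genes. An unadjusted p under 0.05 was found for 11 members (Cdc6, Cdt1, Mcm4, Mcm5, Mcm10, Prim1, Pcna, Rfc4, Fen1, Chaf1a and Chaf1b), against 8.07% of all genes. On the first BeadChip, the one that held both groups, all 34 were again above 0, with a median of 0.51. The positive sign did not hold for Orc6 (-0.01), Rrm2 (-0.04) and Mcm3 (-0.13) without siScramble replicate 1, nor for Mcm3 (-0.07) without siBRG1 replicate 2.

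Cdc6 had 7.82 and 7.56 in siBRG1, against 6.04 and 6.48 in siScramble. Both siBRG1 arrays were higher, also than the 6.89 and 6.92 of DM and the 7.03 and 7.19 of siBAF60c, and below the 8.87 and 8.84 of GM. The mean was 2.69-fold that of siScramble (log2 difference 1.43, 95% interval 0.88 to 1.98, limma's adjusted p = 0.0426, 2 arrays per group). The siScramble group had the lowest Cdc6 mean of the 6 groups. The call rested on the whole set of arrays. Cdc6 did not pass when any single array of GM, siScramble, siBRG1, siBAF60b or siBAF60c was left out. Its difference then ranged between 1.21 and 1.65, and fewer of all genes passed too. Without the DM group, Cdc6 and Cdt1 passed, where 72 of all genes did, against 29 in the main fit. With the BeadChip as a block limma's adjusted p for Cdc6 was 0.0547. The difference was 0.73 in the authors' processed values (limma's adjusted p = 0.0498) and 0.71 without background correction (0.0473). Under median scaling it was 1.68 and did not pass (0.905).

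Cdt1 had 9.64 and 9.79 in siBRG1, against 8.38 and 8.55 in siScramble. The groups were far apart, and the siBRG1 arrays exceeded every other array in differentiation medium, of which the highest was 8.73. The difference of 1.25 (95% interval 0.71 to 1.80) did not pass, with limma's adjusted p at 0.0625. Cdt1 passed when either DM array or the whole DM group was left out (limma's adjusted p = 0.0212), in the authors' processed values (0.0215), without background correction (0.0216) and over probe means (0.0484). It did not pass with the BeadChip as a block (limma's adjusted p = 0.106), under median scaling (0.905) or with any single array outside DM left out (0.0859 to 0.563). Of the other licensing genes, Orc6 had 0.20 with overlapping arrays, and Orc1 and Gmnn were not above background in either group.

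Mcm10 had 8.85 and 8.88 in siBRG1, against 7.86 and 7.86 in siScramble. The siBRG1 arrays were higher by 1.01 (95% interval 0.39 to 1.62) without passing (limma's adjusted p = 0.228). The other activation members had 0.46 (Cdc45), 0.42 (Gins1) and 0.41 (Gins2), with no overlap of arrays in any of the 3. The further probes of Gins2, each detected on 11 arrays, had 1.05 and 0.78. Those of Mcm10, each detected on 4 arrays, had 0.54 and 0.71. The ring subunits ranged between 0.32 for Mcm3 and 0.81 for Mcm4, with a median of 0.54, and Mcm3, detected on 1 of the 2 siScramble arrays, was the subunit whose arrays overlapped. Prim1 was at least 1.14-fold higher, detected on both siBRG1 arrays and on neither siScramble array (limma's adjusted p = 0.518). Pola2 had 0.56, Pold1 0.39, Prim2 0.37 and Pole 0.29.

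Rfc4, a clamp loader subunit, had 9.08 and 9.26 in siBRG1, against 8.32 and 8.34 in siScramble. The siBRG1 arrays were the higher ones and overlapped the 9.19 and 9.22 of GM. The difference from siScramble was 0.84 (95% interval 0.28 to 1.40, limma's adjusted p = 0.298), whereas the second Rfc4 probe, detected on 8 arrays, had -0.03. Pcna had 0.69, Rfc3 0.42 and Rfc5 0.22.

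Chaf1a had 8.59 and 8.97 in siBRG1, against 7.97 and 7.95 in siScramble. Both siBRG1 arrays were higher (0.82, 95% interval 0.23 to 1.42, limma's adjusted p = 0.373), and Chaf1b had 0.80. Of strand binding and joining, Fen1 had 0.79, Rpa2 and Lig1 0.43 each and Rpa1 0.37. The further Rpa2 probe, detected on 8 arrays, had 0.82, and those of Lig1 had -0.33, 0.12 and 0.46. In nucleotide supply, Tyms had 0.56, Tk1 0.32, Rrm1 0.19 and Rrm2 0.09, and arrays overlapped in the last 3. Of the 21 further probes, 17 had the same sign, and the others were 1 probe each of Rfc4, Lig1 (-0.33), Rrm1 (-0.02) and Tyms (-0.51).

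The summed myocyte markers were lower beside these values, at 9018 to 11956 intensity units in siBRG1, against 21082 to 26542 in siScramble. All 6 of 6 measured markers were below 0, with a median of -1.24, and none passed. None of the fibroblast, adipocyte or neuronal markers passed either, of which Pdgfra, a receptor of fibroblasts, had 1.56 (limma's adjusted p = 0.0915), Map2 -1.11 (0.207) and Dcn -1.04 (0.413). The fibroblast sum was 2477 to 2871 intensity units in siBRG1, against 2679 to 2724 in siScramble, the adipocyte sum 200.2 to 238 in siBRG1, against 274 to 371 in siScramble, and the neuronal sum 135 to 156 in siBRG1, against 218 to 343 in siScramble. The part of these lists in the replication values was not tested.

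**Figure D4:**
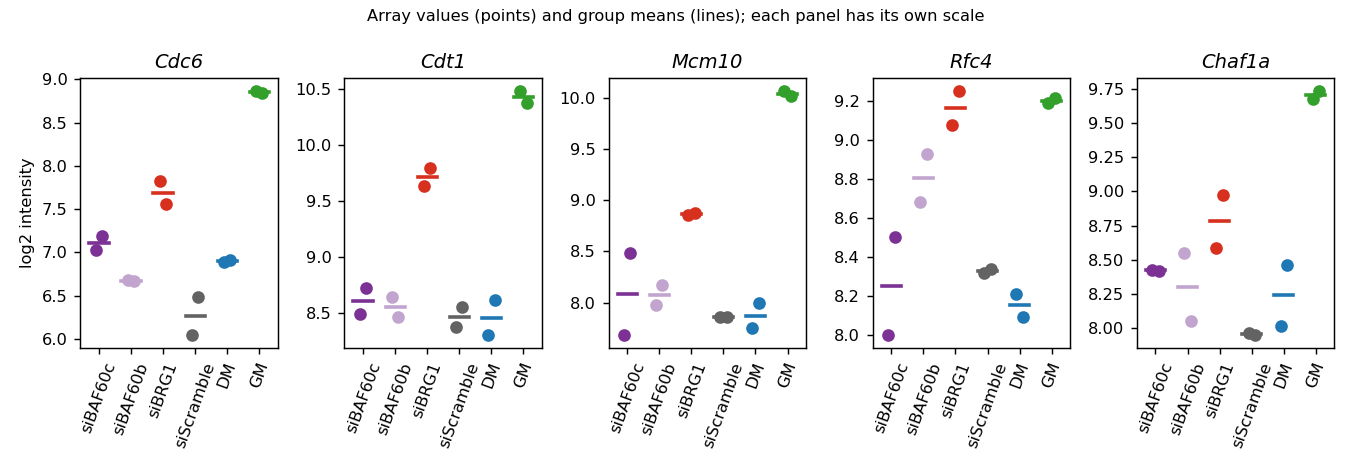
Log2 intensity of the 5 members with the smallest p between siBRG1 and siScramble, on each array (points) with the group mean (line), for the 6 groups; each panel has its own scale, which does not start at 0. The siBRG1 points lie above all siScramble points in the 5 panels, and for Rfc4, shown by its brightest probe, they reach the GM points.

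Compared directly with growing cells, siBRG1 cells had their lowest values in the origin subunit Orc6 and the reductase subunit Rrm2. Between siBRG1 and GM, 7 of 34 members fell and none rose, where 2.73% of all genes fell, with a median of -0.72. Arrays did not overlap in 31 members, against 27.1% of all genes. Orc6 had 10.94 and 11.11 in siBRG1, against 12.75 and 12.81 in GM. It was lower on both siBRG1 arrays (-1.76, SE 0.29, limma's adjusted p = 0.00154). Rrm2 had 8.78 and 8.72 in siBRG1, against 10.73 and 10.10 in GM, again without overlap (-1.67, SE 0.30, limma's adjusted p = 0.00245). Tk1 (-1.27), Mcm5 (-1.26), Mcm10 (-1.18), Cdc6 (-1.16) and Rrm1 (-1.01) completed the 7. Rpa2 had -1.22 and Tyms, the remaining nucleotide supply member, -0.67, and neither passed.

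The members nearest to GM were Rpa1 (0.01, 95% interval -0.61 to 0.63) and Rfc4 (-0.04, -0.60 to 0.52). Their siBRG1 and GM arrays overlapped, as did those of Pold1 (-0.53). Unadjusted p was under 0.05 in 18 members, against 18.4% of all genes. Without any 1 array of GM or siBRG1, fewer members and fewer of all genes passed. The member median then ranged between -0.80 and -0.64. Without the DM group 13 members passed, where 1184 of all genes were called, against 735 in the main fit. The third BeadChip alone gave a median of -0.58. The comparisons against GM share its 2 arrays, and those against siScramble share its 2 arrays, so their values are given side by side and are not independent.

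In the knockdowns of the BAF60 subunits no member differed from siScramble past the threshold. Between siBAF60c and siScramble 0 of 34 members passed, where 0.00967% of all genes did, with 1 at an unadjusted p under 0.05 (4.61% of all genes) and a median of -0.04. Between siBAF60b and siScramble 0 passed, where 0.00967% of all genes did. At an unadjusted p under 0.05 stood 0 members (3.53% of all genes), and the median was 0.15. In siBAF60b 29 of 34 members were above 0, against 50.3% of all genes. Orc1 and Gmnn, among the 29, were undetected in both groups. The siBAF60b arrays lay wholly above those of siScramble in 13 members and wholly below in 2. In siBAF60c 16 members were above 0 and 18 below, with arrays wholly above in 6 and wholly below in 3. With 2 arrays per group a member's 95% interval reached 0.61 to each side (median), and differences wider than that also missed the adjusted threshold.

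Cdc6 was the member with the smallest p in siBAF60c, at 7.03 and 7.19 in siBAF60c, against 6.04 and 6.48 in siScramble. The arrays did not overlap (0.85, 95% interval 0.30 to 1.40, limma's adjusted p = 0.706). Mcm7 (0.56) and Chaf1a (0.46) came next, Orc1 was not above background on any siScramble array, and Mcm3, detected on 1 array of each group, was lowest (-0.52). In siBAF60b, Tk1 had 10.48 and 10.25, against 9.78 and 9.97 in siScramble. Its arrays did not overlap either (0.49, 95% interval -0.12 to 1.10, limma's adjusted p = 0.999). The rest ran between -0.43 (Cdc45) and 0.48 (Rfc4). Summed myocyte markers were 7574 to 20599 intensity units in siBAF60c and 15904 to 22012 in siBAF60b, against 21082 to 26542 in siScramble, and their part in these values was not tested.

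**Figure D5:**
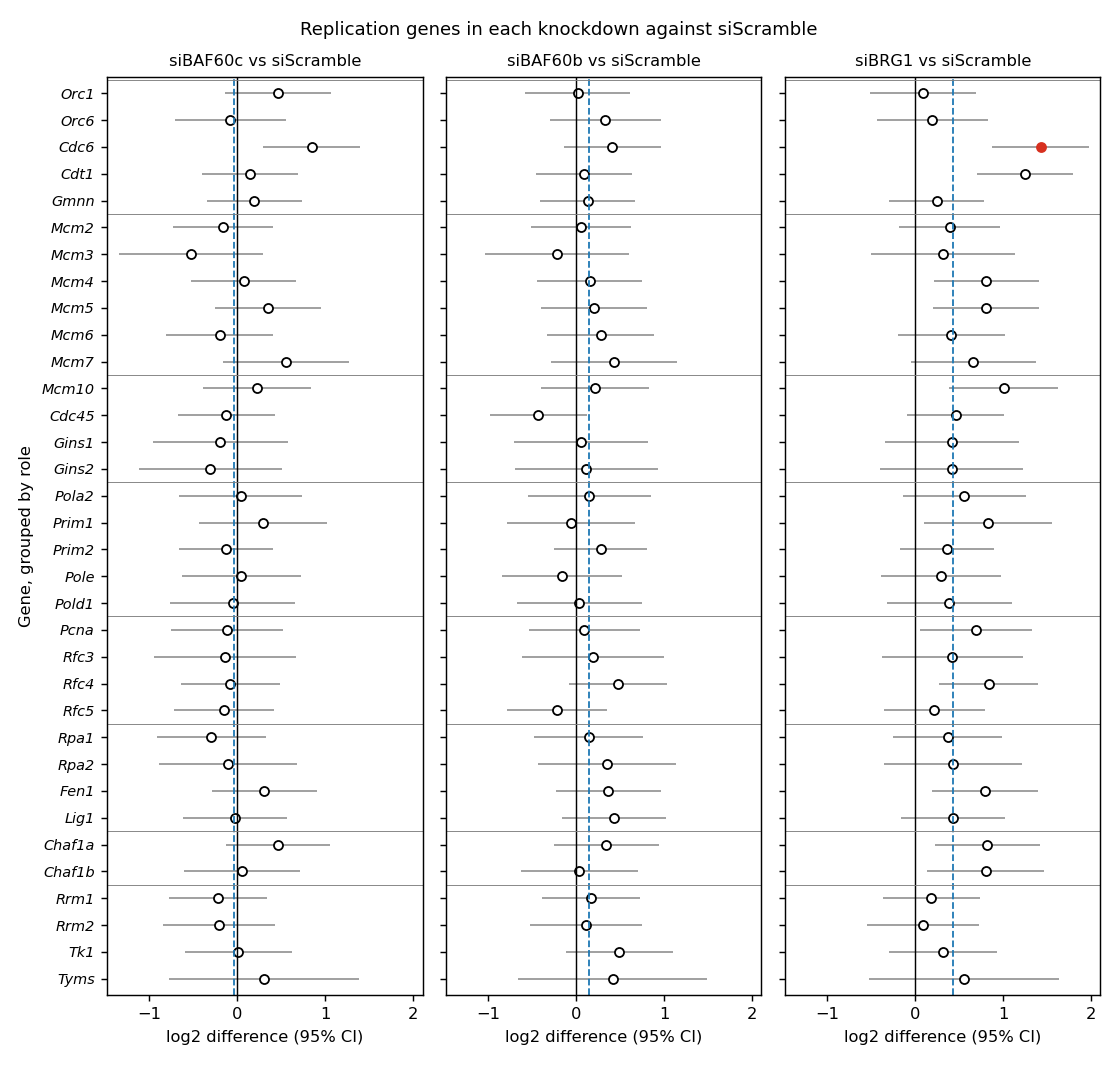
Log2 differences of the 34 replication genes against siScramble for siBAF60c, siBAF60b and siBRG1, with 95% confidence intervals from the limma fit on 2 arrays per group; the filled point (Cdc6 in siBRG1) passed an adjusted p under 0.05 and the dashed line is the member median. The dashed lines stand at -0.04, 0.15 and 0.43, and Orc1 and Gmnn were not above background in siBAF60b, siBRG1 or siScramble.

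Set directly against siBRG1, both BAF60 knockdowns had lower replication values, although 0 of 34 members passed limma's adjusted p, where 0.116% of all genes passed for siBAF60c and 0.087% for siBAF60b. Between siBAF60c and siBRG1, 33 of 34 members were below 0 (median -0.53), against 52.6% of all genes. Arrays did not overlap in 27 of them, against 22.4% of all genes. Between siBAF60b and siBRG1, 31 were below 0 (median -0.36), against 52.6% of all genes. In 22 of them arrays did not overlap, against 21.7% of all genes. The signs of Gmnn, and for siBAF60b also of Orc1, lie between background values. At an unadjusted p under 0.05 stood 11 members for siBAF60c (7.08% of all genes) and 8 for siBAF60b (6.05% of all genes). These comparisons share the siBRG1 arrays.

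Cdt1 showed it most. It had 8.49 and 8.73 in siBAF60c, against 9.64 and 9.79 in siBRG1 (-1.11, 95% interval -1.65 to -0.56, limma's adjusted p = 0.139). In siBAF60b it had 8.65 and 8.47, against the same siBRG1 arrays (-1.16, 95% interval -1.70 to -0.61, limma's adjusted p = 0.121). Neither group overlapped with siBRG1. Cdt1 passed in both comparisons when either DM array was left out (limma's adjusted p = 0.0467 for siBAF60c and 0.0409 for siBAF60b).

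Rfc4 had 8.001 and 8.50 in siBAF60c and 8.68 and 8.93 in siBAF60b, against 9.08 and 9.26 in siBRG1. All 4 BAF60 arrays lay below both siBRG1 arrays. Its difference from siBRG1 was -0.91 in siBAF60c (95% interval -1.48 to -0.35) and -0.36 in siBAF60b (-0.92 to 0.20). The second Rfc4 probe, detected on 8 of the 12 arrays, had -0.07 in siBAF60c and -0.08 in siBAF60b. Between siBAF60c and siBAF60b it had the lowest value of the members (-0.55, 95% interval -1.12 to 0.0064, limma's adjusted p = 0.991), where its second probe had 0.0072. The median over members in that comparison was -0.11, and 0 members passed (0% of all genes), also at an unadjusted p under 0.05 (4.97% of all genes). On the first BeadChip the member median was -0.63 for siBAF60c and -0.29 for siBAF60b, each against siBRG1.

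Of 52 further genes of the replication pathway, 42 were measured. Between DM and GM 20 fell and none rose, where 8.93% of all genes fell, with a median of -0.99. The smallest p-values were those of Clspn, a mediator of the S phase checkpoint (-1.89, SE 0.25, limma's adjusted p = 0.000127), Wdhd1, which links polymerase alpha to the helicase (at least 3.14-fold lower, undetected on both DM arrays), and Top2a, the topoisomerase that untangles copied DNA (-1.85, SE 0.30).

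Between siScramble and GM, 25 of the 42 fell, where 5.95% of all genes fell, with a median of -1.05. Between siScramble and DM, Wdhd1 was at least 1.76-fold higher and the single one that passed (limma's adjusted p = 0.0342), where 3.4% of all genes passed. Between siBRG1 and GM, 5 fell, where 2.73% of all genes fell. They were the uracil glycosylase Ung (-1.79), the histone chaperone Asf1b (-1.67), Topbp1 (-1.57), the RNase H2 subunit Rnaseh2a (-1.29) and Clspn (-1.002).

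Between siBRG1 and siScramble none of the 42 passed, 37 were above 0, against 51.7% of all genes, and the median was 0.49. Ung had the smallest p there, with 6.72 and 6.61 in siBRG1, against 4.76 and 5.81 in siScramble (1.38, SE 0.36, limma's adjusted p = 0.183). It was detected on 1 of the 2 siScramble arrays. Against siScramble the median was 0.18 in siBAF60c and 0.18 in siBAF60b, with none passing in either. Of the 42, 27 were above 0 in siBAF60c and 32 in siBAF60b.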

How the data were processed

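RNA of 12 C2C12 samples was hybridised to single-colour Illumina BeadChips. Per the file headers, the deposited scanner table holds 45281 probes with their linear intensity and detection p-value, and a second deposited table gives the authors' processed intensity for 23165 of them, with no background setting stated. Function neqc of limma 3.58.1 (R 4.3.3) corrected the scanner intensity for background, inferred from the detection p-values, added an offset of 16, normalized quantiles and took log2. A detection p under 0.05 was asked for on 2 or more arrays, which 17565 probes met. Of these, 15126 were named by 1 gene, in the platform annotation supplied, and the brightest probe stood for a gene with several (10346 genes, 3438 with several probes). One limma model (lmFit, eBayes) held all 6 groups (6 residual and 8.17 prior degrees of freedom), and p-values were adjusted by Benjamini-Hochberg over all genes of a comparison. Where every probe of a gene was undetected on both arrays of the dimmer group, a change is a bound, taken against the lowest detected signal of those arrays. Values per array were given for the member of each role with the smallest p in DM against GM and for the 5 with the smallest p in siBRG1 against siScramble. Others given per array were chosen after their values were seen. The members, roles and lists were chosen with earlier results of these data known. The fit was tested on simulated data. Tables were handled with Python 3.11.15. Levels of different probes were not compared, and with 2 against 2 arrays an exact permutation test cannot give a two-sided p below 0.333. Alternatives were median scaling, no background correction, the authors' values, no detection filter, probe means, the BeadChip or the replicate number as a block, and each array left out. The DM group left out was added after seeing the data.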

Additional observations from a re-analysis of the deposited data

How the results depend on the processing

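The sign of the member median held under every alternative in the comparisons against GM, of siBRG1 against siScramble and of siBAF60b or siBAF60c against siBRG1, and sizes and calls moved. Median scaling shifted all genes together (all-gene medians of -0.48 for DM against GM, -0.58 for siScramble against GM, -0.28 for siBRG1 against GM and 0.32 for siBRG1 against siScramble). Member medians were then -2.24, -1.97, -1.14 and 0.83 in these 4 comparisons, -1.76, -1.39, -0.86 and 0.51 relative to that shift, with 0 members called for siBRG1 against GM and 0 against siScramble. It also gave 0.35 for siBAF60b against siScramble, -0.54 for siBAF60b and -0.88 for siBAF60c against siBRG1, and -0.37 for siBAF60c against siBAF60b. All genes called between DM and GM split into 199 higher and 1167 lower, instead of 1086 higher and 924 lower; between siScramble and GM into 122 and 612, instead of 652 and 616; and between siBRG1 and GM into 94 and 98, instead of 453 and 282. Without background correction the medians were -1.01 (DM against GM), -0.86 (siScramble against GM), -0.56 with 13 called (siBRG1 against GM), 0.30 with 2 called (siBRG1 against siScramble), -0.23 (siBAF60b against siBRG1) and -0.31 with 1 called (siBAF60c against siBRG1). The authors' values gave -1.03, -0.86, -0.56 with 13 called, 2 called, -0.23 with 1 called and -0.32 with 1 called in the same 6 comparisons. Of all genes, 819 (no background correction) and 834 (authors' values) were called between siBRG1 and GM, against 735 in the main fit. Probe means called 2 members between siBRG1 and siScramble, where 27 of all genes were called. The BeadChip block called 30 members for DM against GM, 19 for siScramble against GM, 5 for siBRG1 against GM and 0 for siBRG1 against siScramble. Of all genes it called 2376, 1139, 715 and 25. Without the DM group, 13 members were called for siBRG1 against GM (1184 of all genes) and 2 against siScramble (72 of all genes). It gave 1 each for siBAF60b (52 of all genes) and siBAF60c (59 of all genes) against siBRG1. Causes were not tested.

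With each array left out in turn, calls ranged between 22 and 29 (DM against GM), 10 and 28 (siScramble against GM), 2 and 13 (siBRG1 against GM), 0 and 4 (siScramble against DM), 0 and 2 (siBRG1 against siScramble), and 0 and 1 for either BAF60 group against siBRG1. Medians ranged between -1.51 and -1.37, -1.38 and -1.08, -0.80 and -0.64, -0.10 and 0.14, and 0.39 and 0.55 in the first 5, between 0.10 and 0.29 (siBAF60b against siScramble), -0.12 and 0.15 (siBAF60c against siScramble), -0.41 and -0.27 (siBAF60b against siBRG1), -0.62 and -0.36 (siBAF60c against siBRG1) and -0.22 and 0.025 (siBAF60c against siBAF60b). Single members turned sign between siBRG1 and siScramble without siScramble replicate 1 and, for Mcm3, without siBRG1 replicate 2 (-0.07): with each array left out, Orc6 ranged between -0.0065 and 0.40, Rrm2 between -0.041 and 0.22, and Mcm3 between -0.13 and 0.77.

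The replicate number as a block gave 30 calls for DM against GM, 25 for siScramble against GM, 9 for siBRG1 against GM and 1 for siBRG1 against siScramble, and the medians were unchanged. Of all genes, 2216, 1424, 864 and 34 were called in these comparisons. Deviations of same-numbered arrays correlated at 0.0034 to 0.328 over the 10 comparisons, so the numbers were not taken as pairs. Orc1, Gmnn and Prim1 were detected on 2, 2 and 5 of the 12 arrays, which limits what their values can show.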

Other observations

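Of the 34 replication genes, 4 differed by over 1 on the log2 scale between the 2 DM arrays, and the second array was lower in 3 of them. Tyms had 10.46 on replicate 1 and 8.13 on replicate 2, Gins2 had 7.91 and 6.58, and Rfc3 had 5.92 and 4.68. Chaf1b ran the other way, with 8.27 and 9.30. In GM, Pold1 differed by 1.15 (9.75 and 8.61). No member differed by over 1 between the arrays of siBAF60c, siBAF60b, siBRG1 or siScramble, where the widest gap was 0.93 (Gins1 in siBAF60c).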
